A study of Mus musculus with 4 samples.

Results

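The 10 genes described here encode the enzymes of upper glycolysis, from hexokinase to triose phosphate isomerase, together with the bifunctional regulator of phosphofructokinase. They were taken by symbol from the gene count table of an RNA-seq experiment on mouse embryonic stem cells (mESCs), where they are 10 of 37620 genes, and all 10 were among the 16264 genes with enough reads to be tested. The members are Hk1 and Hk2 (hexokinases), Gpi1 (glucose-6-phosphate isomerase), Pfkl, Pfkm and Pfkp (the liver, muscle and platelet forms of phosphofructokinase), Pfkfb3 (a phosphofructo-2-kinase), Aldoa and Aldoc (aldolases) and Tpi1 (triose phosphate isomerase).

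Glycolysis splits glucose into pyruvate, and its upper part spends ATP to prepare the sugar for cleavage. Hexokinase phosphorylates glucose and so holds it in the cell, the isomerase turns glucose-6-phosphate into fructose-6-phosphate, phosphofructokinase adds a further phosphate in the committed step, aldolase cleaves the product into a pair of triose phosphates, and triose phosphate isomerase interconverts them. Pluripotent stem cells are known for high glycolytic flux, and many of these genes are textbook targets of the hypoxia-inducible factors in other settings. At the isomerase step the pathway also meets the hexosamine branch, which makes the sugar donor for O-GlcNAc, the protein modification altered in this study.

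The study compared a pair of mESC lines, with 2 libraries from each. Both lines descend from cells whose own CTCF, the zinc finger protein that anchors chromatin loops, carries an auxin-inducible degron, and both were treated with auxin so that this CTCF was degraded. A vector supplied wild-type CTCF in the line called WT_CTCF. In the line called MUT_CTCF it supplied CTCF in which threonine T668 was replaced by alanine, which removes a site of O-GlcNAc. The comparison of MUT_CTCF with WT_CTCF therefore asks which transcripts differ when CTCF cannot be modified at T668. Each line was a selected clone, so the mutation and clone-to-clone differences cannot be told apart, and the p-values below measure the spread between libraries of 1 clone per line.

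The 4 libraries were alike in depth, with 40524694 to 40977464 reads counted in genes. All 9 embryonic stem cell markers examined were abundant, with at least 11676 reads in every library and a summed level of 10132 to 10316 TPM (a read count corrected for exon length and scaled to the same total in every library). Summed levels of markers of other cell types were low. They ran from 37.4 to 45.4 TPM for 10 fibroblast markers, of which Lum was at 0 in all libraries, from 7.99 to 12.3 TPM for 6 primitive endoderm markers, from 9.38 to 14.3 TPM for 5 trophectoderm markers and from 26.8 to 29.9 TPM for 4 neural markers. The fibroblast, primitive endoderm and neural sums were higher in both MUT_CTCF libraries (41.3 and 45.4, 9.497 and 12.35, and 29.5 and 29.9 TPM) than in both WT_CTCF libraries (37.4 and 39.7, 7.99 and 8.42, and 26.8 and 26.9 TPM), whereas the trophectoderm sum was lower (9.38 and 10.03 against 14.3 and 14.1 TPM). No tested fibroblast, primitive endoderm or neural marker had an edgeR adjusted p under 0.05. Of 5 tested fibroblast markers, 3 had a positive log2 fold change and 2 a negative one, over a range from -1.521 to 0.2027. In that list 1 marker met the limit of the study, which is given below. Positive and negative values numbered 4 and 1 for primitive endoderm, 3 and 0 for neural and 0 and 5 for trophectoderm markers. The highest single markers were Thy1 in the fibroblast list (up to 28.98 TPM) and Nes in the neural list (up to 29.4 TPM). Markers that passed were Cdx2 (trophectoderm, lower in MUT_CTCF cells), Sox2 (stem cell, higher) and Dppa5a (stem cell, lower). The part of these markers in the results was not tested. Ctcf itself, counted without distinction between the tagged and the supplied transcript, had a log2 fold change of 0.04 (SE 0.028), which did not pass the test (edgeR adjusted p = 0.499).

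In MUT_CTCF cells the upper glycolysis enzymes were more abundant at the RNA level, by small amounts. Of the 10 members, 8 rose and 0 fell when adjusted p-values were held to 0.05 (quasi-likelihood test of edgeR with Benjamini-Hochberg adjustment across the tested genes), where 1.56% of all tested genes rose and 1.61% fell. Gpi1 and Pfkm were the members that did not pass. The members were chosen with earlier results of these data known, so the count beside these shares is a description and no independent test. The log2 fold changes of the members ran from 0.03 to 0.99 with a median of 0.24, beside a median of 0.00345 over all tested genes. In 9 of the 10, Pfkm being the exception, each MUT_CTCF library exceeded each WT_CTCF library, an arrangement found in 22.3% of all tested genes. The study set its own limit at a change of more than 2-fold together with p under 0.05; by it the count was 0 of 10, and 1.3% of all tested genes met it in either direction. Aldoc fell just short of that limit, at 1.99-fold. Without MUT_CTCF replicate 1 or replicate 2, no member and no gene of the table passed the adjusted threshold in the same edgeR test, while 9 and 8 members and 1651 and 1585 genes had an unadjusted p under 0.05. Without WT_CTCF replicate 1 the count of members that passed was 7, and without WT_CTCF replicate 2 it was 6. When genes with few reads were kept, in the fit as well as in the adjustment, 4 members passed (Pfkl, Pfkp, Aldoc and Tpi1).

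**Figure D1:**
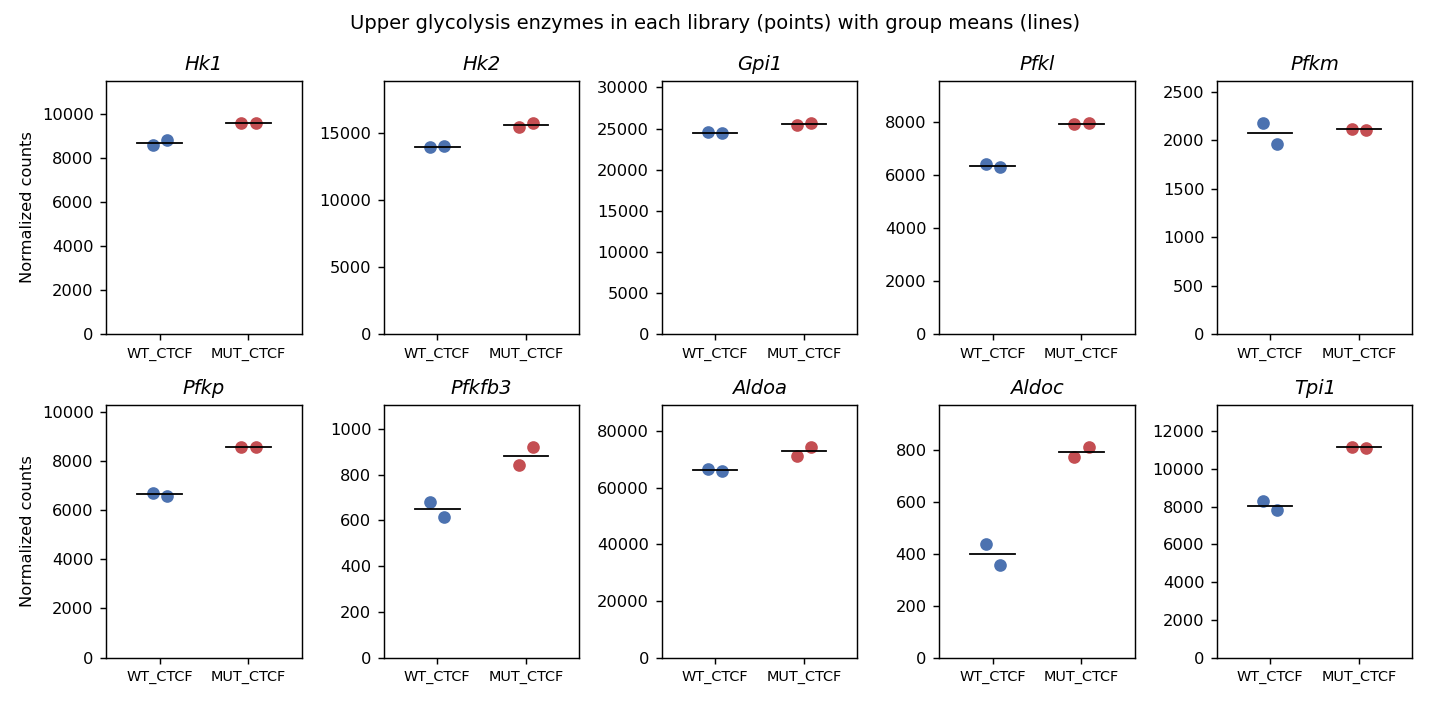
Normalized counts (vertical axes, from 0, a separate scale for each gene) of the 10 upper glycolysis members in the WT_CTCF and MUT_CTCF libraries; points are single libraries (n = 2 per line) and horizontal lines are group means. In all panels but that of Pfkm both MUT_CTCF points lie above both WT_CTCF points, with the widest relative separation for Aldoc (398 against 793 on average).

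Among all tested genes the members sat at different depths, and the precision followed the depth. The standard error of the log2 fold change was 0.022 for Aldoa, the deepest member, and 0.097 and 0.11 for Pfkfb3 and Aldoc, the shallowest. By p-value Tpi1 ranked 4 of all 16264 genes. The plot of all tested genes places the members on the upper side of the cloud, with Pfkm and Gpi1 nearest to 0.

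**Figure D2:**
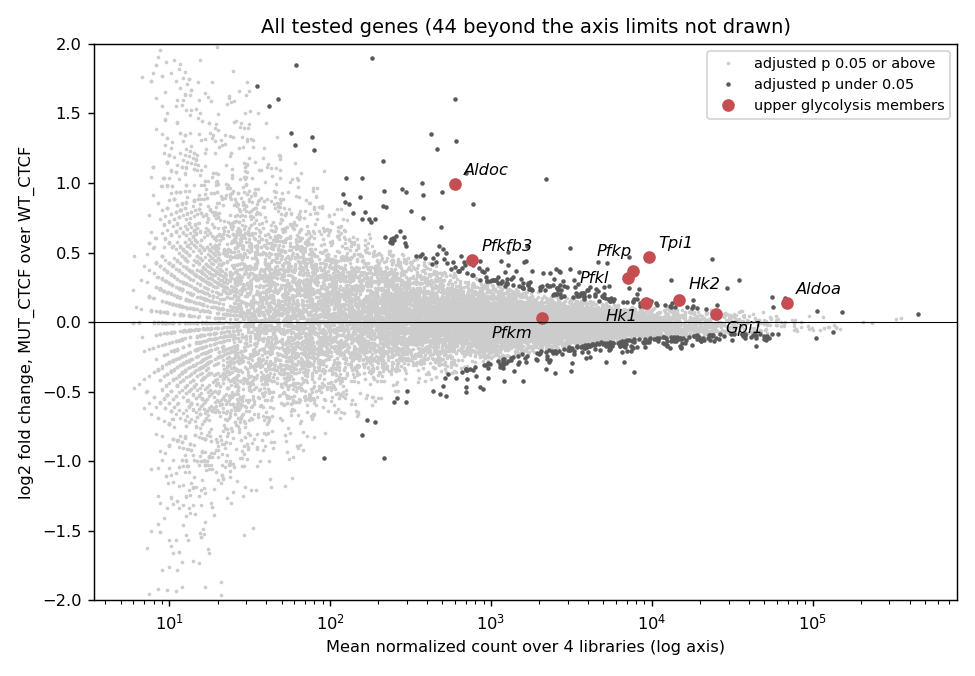
Log2 fold change of MUT_CTCF over WT_CTCF (vertical axis) against the mean normalized count over the 4 libraries (horizontal log axis) for the tested genes, with 44 genes beyond an absolute value of 2 not drawn; red points are the 10 members and dark grey points are other genes that passed the adjusted threshold of 0.05. The members run from 0.03 (Pfkm) to 0.99 (Aldoc), and all are above 0.

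The levels in TPM, per length of the union of exons, gave the same order of the 10 genes in both lines. The order depends on that length, which for Hk1 and Pfkp is much longer than the longest transcript (8532 against 4278 and 9395 against 4663 bases). From the mean TPM in WT_CTCF cells, this order was Aldoa (1589), Gpi1 (360), Tpi1 (241), Hk2 (155), Pfkl (95.6), Hk1 (67.3), Pfkp (46.7), Pfkm (44.8), Aldoc (8.06) and Pfkfb3 (6.09). In MUT_CTCF cells it was Aldoa (1781), Gpi1 (383), Tpi1 (339), Hk2 (176), Pfkl (122), Hk1 (75.6), Pfkp (61.4), Pfkm (46.6), Aldoc (16.4) and Pfkfb3 (8.45). Neighbours in the order were separated in both libraries of a line, except Pfkp and Pfkm in WT_CTCF cells, whose libraries overlapped (46.8 and 46.6 TPM against 46.9 and 42.7 TPM). Aldoa stood at percentile 99.6 of the tested genes by TPM in WT_CTCF cells, and Pfkfb3 at percentile 41.4. TPM and normalized counts are scaled differently, and for every gene the ratio of MUT_CTCF to WT_CTCF is 1.93% higher in TPM, so sums in TPM show wider differences than the counts of single genes given below. The members summed to 2619 and 2607 TPM in WT_CTCF cells and to 2971 and 3047 TPM in MUT_CTCF cells, most of it Aldoa.

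At the first step, both hexokinases rose by about the same proportion. Hk1 (chr10:61731603-61842656, minus strand, build mm9), the housekeeping form bound to mitochondria, had 8593 and 8802 normalized counts in WT_CTCF cells and 9589 and 9578 in MUT_CTCF cells. The lines did not overlap, and the mean was 10.2% higher in MUT_CTCF cells (log2 fold change 0.14, SE 0.035, edgeR adjusted p = 0.0111). The call for Hk1 was lost when any 1 of the 4 libraries was left out, with log2 fold changes of 0.12 to 0.16. Hk2 (chr6:82675019-82724448, minus strand), the inducible hexokinase of growing cells, had 13944 and 14025 normalized counts in WT_CTCF libraries and 15494 and 15756 in MUT_CTCF libraries. Here too the lines were apart, with a rise of 11.7% (log2 fold change 0.16, SE 0.030, edgeR adjusted p = 0.000345). Together they made 220 and 224 TPM in WT_CTCF cells and 251 and 253 TPM in MUT_CTCF cells, a difference of 13.4% on the TPM scale. Hk2 supplied 69.9% and 69.5% of this sum in WT_CTCF cells and 69.8% and 70.2% in MUT_CTCF cells, so the shares of the lines overlapped (difference 0.291 percentage points, exact two-sided permutation p = 0.667, n = 2 per line). With 2 libraries against 2 that test cannot go below 0.333, and it can pass no threshold here. TPM used the union of exons, which is 8532 bases for Hk1 against 4278 for its longest transcript. For Hk2 these lengths are 5969 and 5513 bases, so the size of the shares depends on the length chosen.

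Gpi1 (chr7:34987141-35015308, minus strand), whose product also acts outside the cell as a cytokine, differed least among the members whose libraries were separated. It had 24518 and 24466 normalized counts in WT_CTCF cells and 25436 and 25648 in MUT_CTCF cells. Both MUT_CTCF libraries were higher, by 4.29% on average, and the difference did not pass the test (log2 fold change 0.06, SE 0.026, 95% interval from 0.00932 to 0.11, edgeR adjusted p = 0.241). Gpi1 shares 741 exon bases, 16.5% of its exons, with Gm17327 on the opposite strand, which had 9 to 23 reads. A stretch of chromosome 8 annotated as Gm1840 matches 88.2% of the Gpi1 transcript at 98.6% identity and held 90 to 137 reads, so reads that fit both places were not counted for Gpi1.

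The phosphofructokinase step showed a split between its paralogues. Pfkl and Pfkp rose, and Pfkm, the form that dominates in skeletal muscle, did not pass the test. Pfkl (chr10:77449692-77472828, minus strand) had 6410 and 6310 normalized counts in WT_CTCF cells and 7921 and 7960 in MUT_CTCF cells. The gap between the lines was far wider than that between replicates, and the rise was 24.9% (log2 fold change 0.32, SE 0.037, edgeR adjusted p = 6.70e-09). Pfkp (chr13:6579014-6648023, minus strand) had 6690 and 6593 normalized counts in WT_CTCF cells and 8578 and 8562 in MUT_CTCF cells. It was again separated by line, with a rise of 29.0% (log2 fold change 0.37, SE 0.036, edgeR adjusted p = 5.65e-11). Pfkp shares 372 exon bases, 3.96% of its exons, with Pitrm1 on the opposite strand, a mitochondrial peptidase gene whose log2 fold change of 0.11 did not pass (edgeR adjusted p = 0.205). Pfkm (chr15:97923020-97962878, plus strand) had 2176 and 1963 normalized counts in WT_CTCF cells and 2116 and 2109 in MUT_CTCF cells. The MUT_CTCF libraries lay between the WT_CTCF libraries (log2 fold change 0.03, SE 0.063, 95% interval from -0.0932 to 0.15, edgeR adjusted p = 0.892). Without WT_CTCF replicate 2 the value for Pfkm turned to -0.04.

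The makeup of the step was then computed per exon length. The union of exons of Pfkp is 9395 bases, against 4663 for its longest transcript. These lengths are 4395 and 3730 bases for Pfkl, and 3051 and 2880 for Pfkm. The size of the shares therefore depends on the length chosen. The 3 genes summed to 190 and 185 TPM in WT_CTCF cells and to 229.9 and 229.6 TPM in MUT_CTCF cells, 22.8% higher on the TPM scale. Pfkm made up 24.7% and 23.1% of the sum in WT_CTCF cells and 20.3% and 20.2% in MUT_CTCF cells. Pfkp made up 24.7% and 25.2% in WT_CTCF cells and 26.8% and 26.7% in MUT_CTCF cells, and Pfkl 50.6% and 51.6% against 52.9% and 53.0%. For each paralogue the shares of the lines did not overlap, at the smallest p that the exact permutation test allows (0.333, n = 2 per line). With the longest transcript as the length, the share of Pfkl differed by 0.976 percentage points instead of 1.86. Pfkl remained the main form in all 4 libraries. At the level of coding sequence the members are 68.2% (Pfkl and Pfkp) to 70.7% (Pfkl and Pfkm) identical, and none of them had a match of at least 95% identity over 100 bases elsewhere in the genome.

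**Figure D3:**
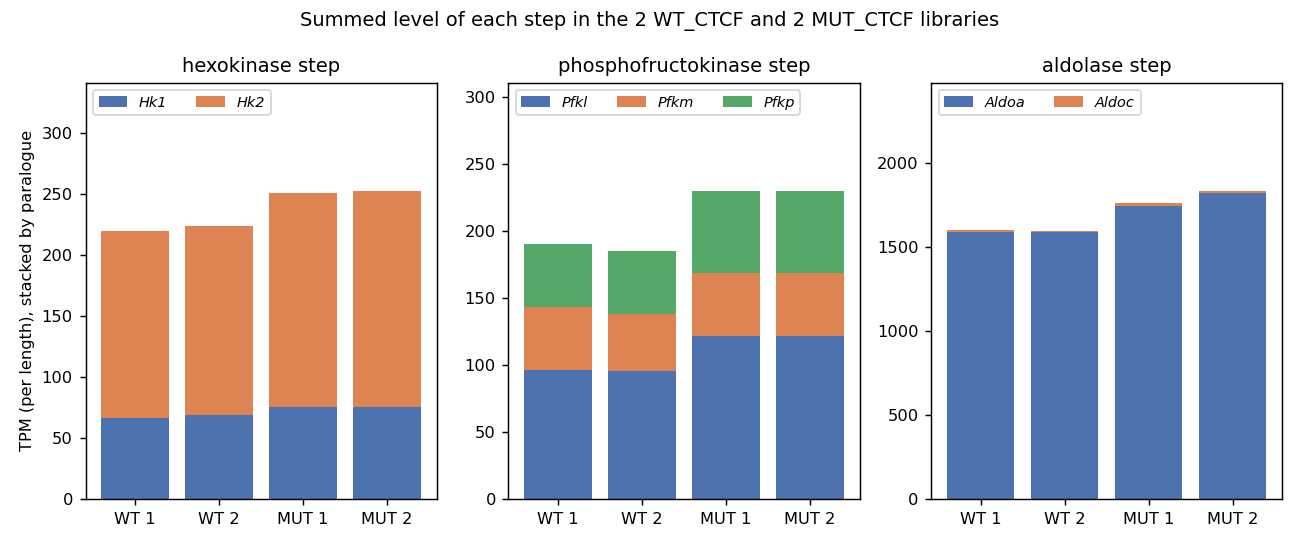
Summed TPM (vertical axes, from 0) of the hexokinase, phosphofructokinase and aldolase steps in each of the 4 libraries, stacked by paralogue. The sums are higher in both MUT_CTCF libraries at each step (13.4%, 22.8% and 12.6% on average), Hk2, Pfkl and Aldoa are the main forms, and the Pfkm segment is of similar height in all libraries.

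Pfkfb3 (chr2:11393057-11423728, minus strand) makes fructose-2,6-bisphosphate, the strongest activator of phosphofructokinase, and is the member with the lowest TPM. It had 681 and 614 normalized counts in WT_CTCF cells and 843 and 921 in MUT_CTCF cells. The replicates of either line differed by up to 0.15 on the log2 scale, and the nearest libraries of the lines by 0.31. The rise was 36.1% (log2 fold change 0.45, SE 0.097, edgeR adjusted p = 0.00330). The call was lost without WT_CTCF replicate 2 and, as for every member, without either MUT_CTCF library. As each library was left out in turn, the log2 fold change ran from 0.37 to 0.52. The other isoforms of this regulator, Pfkfb1, Pfkfb2 and Pfkfb4, had log2 fold changes of -0.13, -0.07 and -0.20, and none passed the test.

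At the aldolase step the abundant and the rare paralogue both rose, by different proportions. Aldoa (chr7:133938748-133944265, minus strand), the ubiquitous aldolase and the most abundant member, had 66495 and 65953 normalized counts in WT_CTCF cells and 71238 and 74418 in MUT_CTCF cells. The lines were separated, and the rise was 9.97% (log2 fold change 0.14, SE 0.022, edgeR adjusted p = 1.59e-05). Aldoc (chr11:78136470-78141283, plus strand), the form typical of brain, had 438 and 359 normalized counts in WT_CTCF cells and 773 and 813 in MUT_CTCF cells. Its lowest MUT_CTCF library was well above its highest WT_CTCF library, and the mean rose by 99.1% (log2 fold change 0.99, SE 0.11, edgeR adjusted p = 2.51e-09), the widest change among the members. Scaled by library size alone, or without WT_CTCF replicate 1 or MUT_CTCF replicate 1, the fold change of Aldoc was above 2.

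Since Aldoa outnumbered Aldoc by a wide margin per exon length, the aldolase sum was mostly Aldoa. It was 1597 and 1596 TPM in WT_CTCF cells and 1760 and 1834 TPM in MUT_CTCF cells, 12.6% higher on the TPM scale. Aldoc supplied 0.552% and 0.457% of it in WT_CTCF cells and 0.908% and 0.913% in MUT_CTCF cells (exact permutation p = 0.333, the smallest possible). The difference was 0.406 percentage points, and 0.269 with the longest transcript as the length. Their coding sequences are 75.9% identical, and neither had a near-identical copy by the limits above.

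Tpi1 (chr6:124760604-124764314, minus strand) completes the upper pathway and had the smallest p-value of the members. It had 8294 and 7821 normalized counts in WT_CTCF cells and 11165 and 11100 in MUT_CTCF cells. The lines stood far apart relative to the replicates, with a rise of 38.2% (log2 fold change 0.47, SE 0.035, edgeR adjusted p = 2.05e-15). Tpi1 shares 34 exon bases with Spsb2 on the opposite strand, whose log2 fold change was 0.07 (edgeR adjusted p = 0.897). A second place on chromosome 6, annotated as 9330179D12Rik and at 0 reads in every library, matches 53.9% of the Tpi1 transcript at 97.7% identity.

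Next come other enzymes around the same steps: paralogues, enzymes that oppose a step, and enzymes of branches that leave the pathway. They are called other enzymes at the same steps below. Of 23 such genes 20 were tested, 2 rose and 0 fell, where 1.56% of all tested genes rose and 1.61% fell, and the median log2 fold change was 0.04. The count that rose was 1 with DESeq2 or without a filter, 3 with at least 10 reads required in every library or with edgeR's exact test, and 0 without either MUT_CTCF library. Among those with a negative fold change none had an unadjusted p under 0.05, and DESeq2 called none lower either. Both genes that rose are on the list as branch enzymes. They carry phosphoglucomutase symbols, given here as in the mm9 annotation, and other releases may name them differently. They are Pgm2 (chr4:99602019-99659899, plus strand) and Pgm1 (chr5:64484175-64519594, plus strand). Pgm2 had 2695 and 2714 normalized counts in WT_CTCF cells and 3627 and 3411 in MUT_CTCF cells (log2 fold change 0.38, SE 0.052, edgeR adjusted p = 7.72e-07). Pgm1 had 1758 and 1576 normalized counts in WT_CTCF cells and 2035 and 1880 in MUT_CTCF cells (log2 fold change 0.23, SE 0.067, edgeR adjusted p = 0.0399). In both the lines did not overlap. Pfkfb4, another isoform of the phosphofructokinase regulator, had 339 and 332 normalized counts in WT_CTCF cells and 294 and 287 in MUT_CTCF cells (log2 fold change -0.20, SE 0.14, edgeR adjusted p = 0.555).

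In lower glycolysis, from glyceraldehyde-3-phosphate dehydrogenase to lactate dehydrogenase, 16 of 17 listed genes were tested, 5 rose and 0 fell, beside the same 1.56% and 1.61% of all tested genes, with a median log2 fold change of 0.10. The count that rose was 3 without either WT_CTCF library, 0 without either MUT_CTCF library and 2 without a filter. With DESeq2's Wald test or edgeR's exact test the count that rose was 4. The 4 with a negative fold change all had an unadjusted p above 0.05. Ldha, which makes lactate, had 31156 and 31210 normalized counts in WT_CTCF cells and 37887 and 38847 in MUT_CTCF cells (log2 fold change 0.30, SE 0.024, edgeR adjusted p = 5.22e-14). Pgk1, which yields the first ATP of the pathway, had 11970 and 11689 against 14588 and 14604 (log2 fold change 0.30, SE 0.031, edgeR adjusted p = 1.29e-10). Both were separated by line. Eno1 and Eno3, enolases, had log2 fold changes of 0.11 (SE 0.022, edgeR adjusted p = 0.000966) and 0.38 (SE 0.11, adjusted p = 0.0363), and Pkm, the pyruvate kinase of most tissues, 0.07 (SE 0.018, adjusted p = 0.00766). Gapdh, next after Tpi1 in the pathway, had 236923 and 232594 normalized counts in WT_CTCF cells and 231247 and 237033 in MUT_CTCF cells, and these overlapped (log2 fold change -0.00381, SE 0.016, edgeR adjusted p = 0.951). Pgk2, the testis form of phosphoglycerate kinase, had no reads in any of the 4 libraries.

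**Figure D4:**
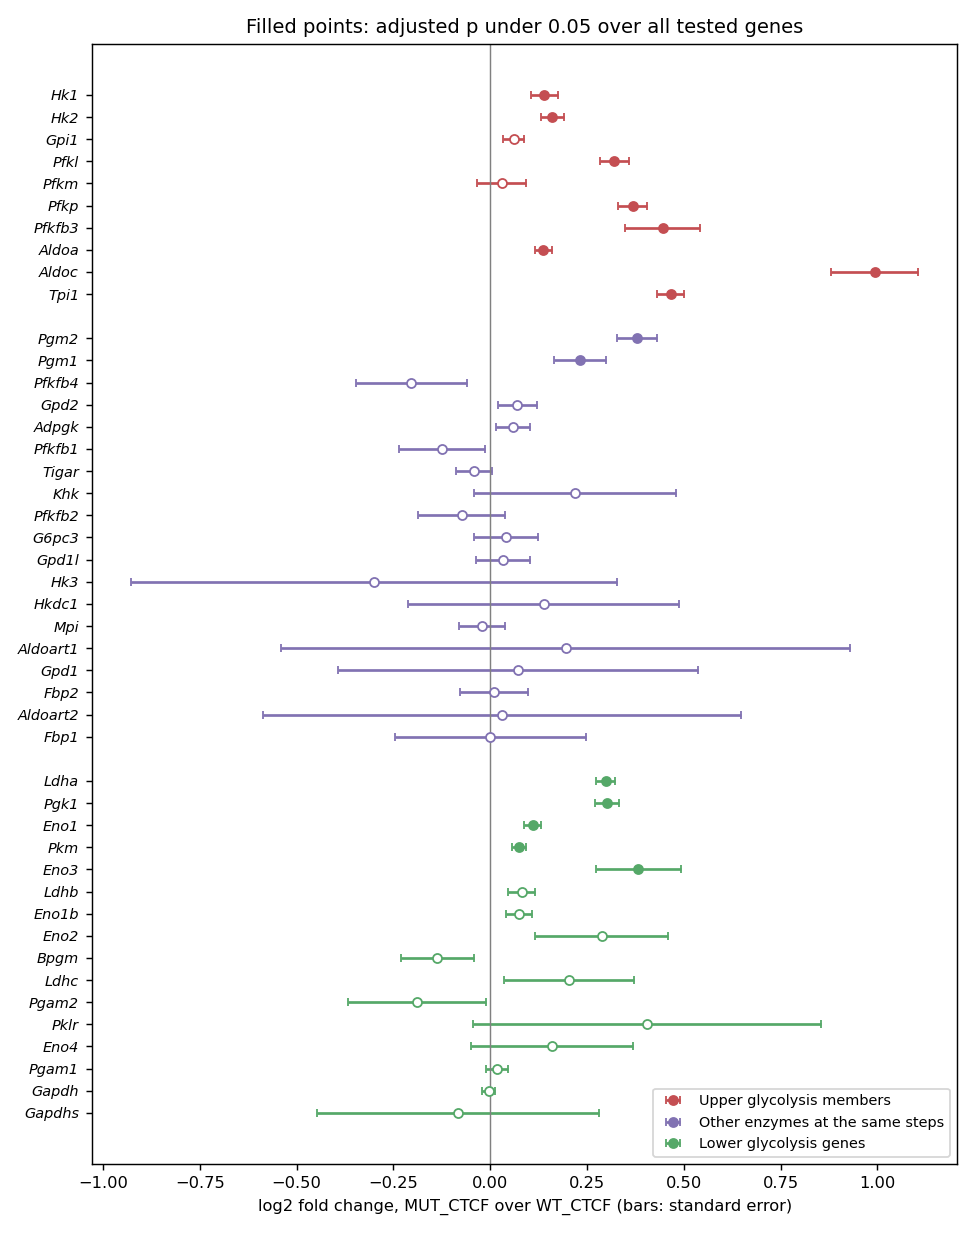
Log2 fold change of MUT_CTCF over WT_CTCF (horizontal axis) with its standard error (bars) for the 10 upper glycolysis members in pathway order. Below them are tested other enzymes at the same steps (paralogues, opposing and branch enzymes) and the 16 tested lower glycolysis genes, these 2 lists ordered by p-value. Filled points passed the adjusted threshold of 0.05. Filled points are 8, 2 and 5 in number, and all lie to the right of 0.

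The promoters of the members were examined for short motifs as a description of sequence, with no bearing on binding. The RefSeq promoter table (GRCm38.p6) holds 18 windows for the 10 genes, each from 250 bases before to 50 bases after a start site, and all 18 were placed in mm9 by exact match. The core of the hypoxia response element, ACGTG or GCGTG on either strand, was present in 13 of the 18 windows (72.2%) and in 8 of the 10 genes, against 43.8% of all 32851 windows and 59.7% of the windows of tested genes. Some windows of a gene overlap, as windows 2 and 3 of Aldoa and windows 2 and 3 of Pfkm do, so a site can be counted more than once. Counted by gene, the share with the core was 80.0% of the members and 65.5% of tested genes. The letters AGGNGGC, part of the CTCF consensus, were in 55.6% of the member windows, 29.4% of all windows and 40.0% of those of tested genes. The E-box CACGTG, which contains ACGTG, was in 11.1%, 7.15% and 9.78%. By gene, AGGNGGC was in 60% of the members and 44.9% of tested genes. Median GC content was 58.2% in member windows, 52.7% in all windows and 60.3% in those of tested genes.

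Gpi1, which did not pass the test, and Tpi1, which had the smallest p-value, both lacked the hypoxia response element core in this window, and Pfkm had it at 3 of its 4 start sites. Pfkp had 4 matches, which begin at positions -136, -68, -23 and 29 with the start site as position 0, and Hk2 had 2, at -226 and -52. To show what these windows look like, the 250 bases before the start site are given for an inducible hexokinase with matches, the isomerase without, and the phosphofructokinase with the most matches in a single window, 5′ to 3′ along the gene, with the matches in capitals (on either strand, so CACGT and CACGC are matches read on the other strand). They lie in mm9 at chr6:82724449-82724698, chr7:35015356-35015605 and chr13:6648018-6648267, all on the minus strand.
Hk2: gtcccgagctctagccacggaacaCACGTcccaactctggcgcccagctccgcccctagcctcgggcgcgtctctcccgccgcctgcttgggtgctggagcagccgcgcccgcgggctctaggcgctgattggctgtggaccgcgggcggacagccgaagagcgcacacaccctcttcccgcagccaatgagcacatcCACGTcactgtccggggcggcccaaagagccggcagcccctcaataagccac
Gpi1: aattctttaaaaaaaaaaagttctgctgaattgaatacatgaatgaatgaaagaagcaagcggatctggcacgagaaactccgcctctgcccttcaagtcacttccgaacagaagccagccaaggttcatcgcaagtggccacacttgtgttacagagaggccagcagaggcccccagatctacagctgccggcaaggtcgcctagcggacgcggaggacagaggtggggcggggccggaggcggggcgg
Pfkp: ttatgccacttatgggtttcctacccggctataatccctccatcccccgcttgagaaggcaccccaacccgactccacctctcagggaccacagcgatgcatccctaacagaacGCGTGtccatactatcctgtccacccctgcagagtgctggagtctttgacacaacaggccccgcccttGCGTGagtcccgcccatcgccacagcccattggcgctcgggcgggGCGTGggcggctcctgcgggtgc

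**Figure D5:**
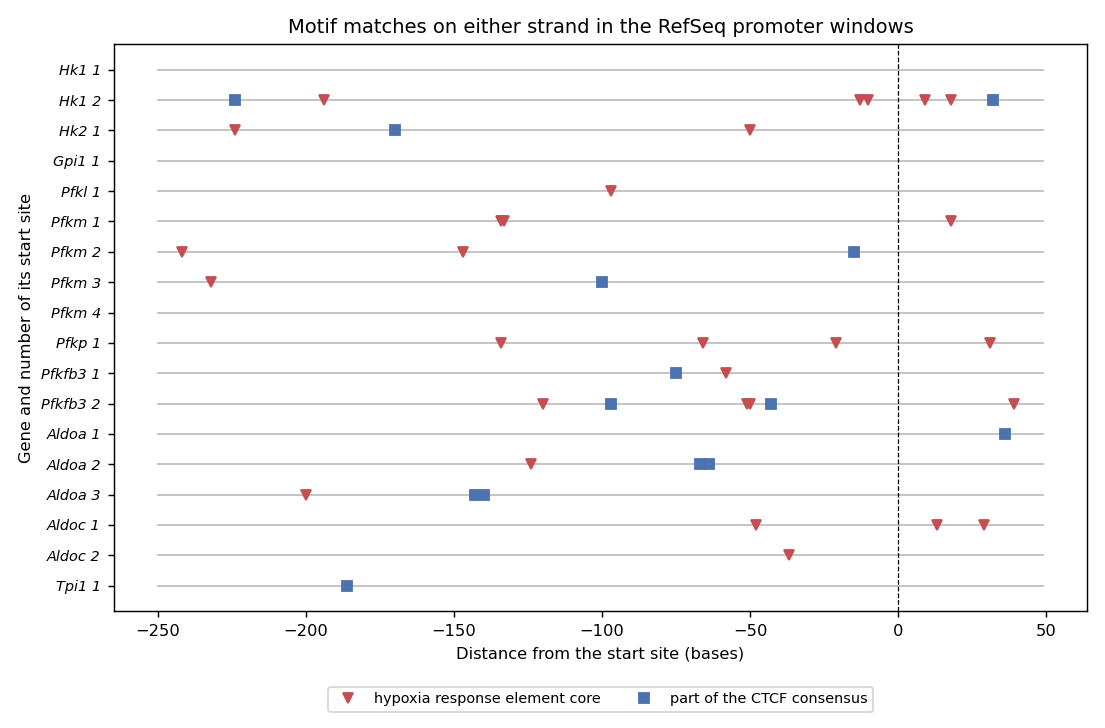
Positions of the hypoxia response element core (red triangles) and of the CTCF consensus letters AGGNGGC (blue squares), on either strand, in the 18 RefSeq promoter windows of the 10 members; the horizontal axis is the distance from the start site in bases. The core is present in 13 windows, and the windows of Gpi1 and Tpi1 have none.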

How the data were processed

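RNA of mESCs was sequenced in 4 libraries, 2 for each line. According to the study's methods, the authors used Trim Galore for trimming and STAR for alignment to mm9, and counted uniquely mapped reads per gene with HTSeq-count (the submitters' processing notes list Trim Galore 0.4.4 and HTSeq 0.9.1), without a stated strand setting or annotation release. The deposited values are raw counts. A further table of the authors' own edgeR comparison (fold changes and p-values) was not used.

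Genes were named from GENCODE M1 (37205 of 37620 identifiers). Counts were tested with edgeR 4.0.16 (R 4.3.3): genes passing filterByExpr with a minimum count of 10, TMM scaling, the quasi-likelihood test of MUT_CTCF over WT_CTCF, and Benjamini-Hochberg adjustment over 16264 genes at 0.05. The SE is the log2 fold change divided by the root of F, and 95% intervals are 1.96 SE. To give normalized counts, each library was scaled to the average effective library size. TPM used the union of exon lengths. Near-copies were sought with blastn 2.17.0 (at least 95% identity over 100 bases). In simulated data, 41.1% of genes changed 1.3-fold and 68.7% of genes changed 2-fold were recovered. At 40524694 to 40977464 counted reads a library, 2 libraries per line limit precision.

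The members and gene lists were chosen with earlier results of these data known. All members are named, and of the other lists the 4 genes with the smallest p and any with an adjusted p under 0.05, apart from results that are not reported here. Alternatives were other scalings (DESeq2 size factors, library size), filters, DESeq2 1.42.0, edgeR's exact test, a replicate block, leaving out each library, and the longest transcript as length.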

Additional observations from a re-analysis of the deposited data

How the results depend on the processing

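The count of 8 members that rose was the same with DESeq2's size factors, library size scaling, a stricter filter (at least 10 reads in every library), DESeq2's Wald test and edgeR's exact test. Without a filter it was 4, and it ran from 0 to 7 as each library was left out in turn, the remaining sample of that line being assumed to vary like the other line. Over all genes, 253 rose and 262 fell, against 128 and 158 with DESeq2, 260 and 152 with library size scaling, 26 and 3 without a filter, and 0 to 140 and 0 to 102 with a library left out. At the criterion of the study the members numbered 1 (Aldoc) with library size scaling and 0 to 1 with a library left out. Lower glycolysis genes that rose numbered 2 without a filter and 0 to 3 with a library left out. For other enzymes at the same steps the count of 2 became 1 with DESeq2 or without a filter, 3 with the stricter filter or edgeR's exact test, and 0 to 2 with a library left out. For lower glycolysis the main count of 5 became 4 with DESeq2's Wald test or edgeR's exact test. The members' median log2 fold change was 0.25 with library size scaling, and 0.23 to 0.25 with a library left out. These medians were 0.0743 to 0.146 for lower glycolysis and 0.00759 to 0.0513 for the other enzymes. Log2 ratios of the summed TPM ran from 0.14 to 0.20 (aldolase) and from 0.28 to 0.32 (phosphofructokinase) with a library left out, and the latter was 0.32 with the longest transcript as length. With that length the share of Pfkl differed by 0.976 percentage points, of Pfkp by 2.08 and of Aldoc by 0.269. Pfkm ran from -0.0442 (without WT_CTCF replicate 2) to 0.1056 (without WT_CTCF replicate 1). The cause of these differences was not tested.

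The labels do not say whether equal replicate numbers pair the libraries. Replicate differences of the lines correlated at -0.00574 across tested genes, a value that cannot exclude pairing or a batch that affects some genes. With the replicate number as a block, 326 genes rose and 372 fell, and 8 members and 3 other enzymes at the same steps rose.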
